A study of Drosophila melanogaster with 12 samples.

Results

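The genes described here lie in the pericentromeric heterochromatin of 3 chromosome arms of Drosophila melanogaster, and their occupancy by RNA polymerase II (Pol II) phosphorylated on Serine 5 (S5) was examined in Kc167 cells. Members were all protein-coding genes that lie wholly beyond 22.16 Mb on 2L, beyond 22.96 Mb on 3L or before 4.17 Mb on 3R. Symbols that begin with RpL, RpS, mRp, ND-, ATPsyn, MED, Taf, Polr, Rpt or Pros, most of them subunits of large complexes such as the ribosome, were left out. This gave 62 of 13968 protein-coding genes, with 19 on 2L, 32 on 3L and 11 on 3R. The 3 blocks span 10.67 Mb and hold 70 protein-coding genes, of which 8 were left out by symbol.

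The assay was ChIP-seq, in which DNA bound by Pol II S5 is pulled down with an antibody and sequenced, and Kc167 is a line of embryonic hemocyte cells. In the AGO2 KD cells Argonaute2, a small RNA-binding protein, was depleted with 100 pmol of siRNA. In the LaminB KD cells LaminB, a protein of the nuclear lamina, was depleted with 2 µg of dsRNA, and mock cells were transfected with no RNA. All cells were collected 3 days after transfection. Each group had 2 replicate libraries, and nothing in the labels says that these came from separate cultures, so p-values measure only the spread between these libraries. LaminB KD served as the control for the specificity of the AGO2 KD.

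Pericentromeric heterochromatin is the compact chromatin beside the centromere. It is rich in transposons and other repeats, carries methylated lysine 9 of histone H3 and binds heterochromatin protein 1, and it silences many genes that are moved into it. The genes that reside there are often long, with introns filled by transposon remnants, and several of them depend on their heterochromatic surroundings for normal expression. Serine 5 phosphorylation of Pol II is set when the polymerase starts transcription, and it is highest near transcription starts.

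Each library is a list of broad enriched regions (peaks), called by the authors against a paired input. Covered share is used here for the percentage of the bases of a gene that lie under peaks. A promoter peak is a peak with at least 1 bp within 1500 bp of any annotated start of the gene. For replicates 1 and 2 the lists held 5532 and 6631 peaks after AGO2 KD, 8541 and 5108 after LaminB KD, and 6435 and 7162 in mock. Read depth is unknown from these lists, and they were not scaled to one another. The LaminB KD replicates were the longest and the shortest list, so that each LaminB KD value is given for both. AGO2 had covered shares of 6.67% and 9.97% after AGO2 KD, 67.6% and 6.72% after LaminB KD, and 7.20% and 7.39% in mock. Lam, the gene of LaminB, had 50.8% and 77.5% after AGO2 KD, 82.5% and 23.5% after LaminB KD, and 72.5% and 77.4% in mock. A peak does not measure the depleted transcript, so these values do not check the knockdowns. Of 8 hemocyte markers, 5 (srp, Pxn, Col4a1, vkg and Hml) had a promoter peak in all 6 libraries, and NimC1, He and eater had none in any. The muscle gene Mhc and the fat body gene Lsp2 had none, whereas vas, a germline gene, had one in all 6 libraries and elav, a neuronal gene, in 5.

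Most of these genes were either occupied at their promoter in every library or in none. A promoter peak was present in all 6 libraries for 23 of the 62 genes, in 1 to 5 libraries for 11 and in none for 28. The promoters of 8 genes are shown here because they stand for the main patterns. Tim23, Clamp, cta and vtd had a promoter peak in every library, Vps11 in the mock libraries alone, and Snap25, Gfat1 and eIF4B in none. Each sequence runs from 150 bases before to 30 bases from the canonical Ensembl start, read from the RefSeq sequence of the dm6 build. Capitals mark TATCGATA (the core of the DREF element), TATAAA (the TATA box), GAGAG (bound by GAGA factor), TCAGT (part of the initiator) and GGTCACAC (Motif 1), on either strand.
Tim23, chr2L:23313549-23313728, minus strand: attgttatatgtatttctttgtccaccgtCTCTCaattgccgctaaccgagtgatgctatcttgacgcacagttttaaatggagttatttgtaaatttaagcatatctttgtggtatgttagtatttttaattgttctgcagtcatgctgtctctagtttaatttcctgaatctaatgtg
Clamp, chr2L:22169114-22169293, minus strand: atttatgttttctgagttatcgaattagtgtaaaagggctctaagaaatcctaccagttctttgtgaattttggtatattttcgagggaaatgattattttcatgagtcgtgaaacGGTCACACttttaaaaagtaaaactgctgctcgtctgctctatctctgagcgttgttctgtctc
cta, chr2L:22981666-22981845, plus strand: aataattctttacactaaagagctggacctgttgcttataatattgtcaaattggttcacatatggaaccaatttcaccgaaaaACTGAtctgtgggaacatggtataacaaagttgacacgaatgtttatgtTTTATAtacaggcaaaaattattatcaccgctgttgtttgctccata
vtd, chr3L:27136375-27136554, plus strand: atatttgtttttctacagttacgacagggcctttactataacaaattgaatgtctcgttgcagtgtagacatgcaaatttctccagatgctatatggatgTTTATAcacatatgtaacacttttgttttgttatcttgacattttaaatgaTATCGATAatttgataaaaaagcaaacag
Vps11, chr3L:23150470-23150649, minus strand: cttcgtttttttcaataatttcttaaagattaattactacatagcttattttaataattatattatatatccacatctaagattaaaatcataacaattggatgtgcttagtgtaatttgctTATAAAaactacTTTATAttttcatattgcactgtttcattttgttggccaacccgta
Snap25, chr3L:24074030-24074209, plus strand: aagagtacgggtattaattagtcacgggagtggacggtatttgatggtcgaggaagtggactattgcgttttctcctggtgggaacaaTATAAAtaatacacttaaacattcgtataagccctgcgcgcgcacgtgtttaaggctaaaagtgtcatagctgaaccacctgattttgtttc
Gfat1, chr3R:4126292-4126471, plus strand: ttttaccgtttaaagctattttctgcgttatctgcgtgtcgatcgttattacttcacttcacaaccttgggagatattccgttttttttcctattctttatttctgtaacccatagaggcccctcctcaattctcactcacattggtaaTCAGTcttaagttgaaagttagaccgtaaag
eIF4B, chr3L:27858242-27858421, minus strand: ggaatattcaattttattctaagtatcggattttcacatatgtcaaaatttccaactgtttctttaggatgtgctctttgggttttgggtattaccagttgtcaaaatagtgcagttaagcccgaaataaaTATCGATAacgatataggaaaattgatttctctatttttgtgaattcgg

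In windows from 250 bases before to 50 bases after the start, TATCGATA was found in 4 of 62 heterochromatic genes (6.45%), against 8.94% of all protein-coding genes. GGTCACAC was found in 1 of 62, that of Clamp, against 7.52% of all. Among genes with a promoter peak in all 6 libraries, the shares were 2 of 23 heterochromatic genes for TATCGATA and 1 of 23 for GGTCACAC, against 15.2% and 14.1% of all such genes. TATAAA was found in 15 of these 23 genes (65.2%), against 44.6% of all such genes. It was also found in 15 of the 28 heterochromatic genes with no promoter peak (53.6%), against 47.2% of all such genes. Of the 62 genes 34 held it (54.8%), against 45.3% of all protein-coding genes. Among genes with a promoter peak in all 6 libraries, GAGAG was found in 6 of 23 (26.1%), against 28.5%, and TCAGT in 12 of 23 (52.2%), against 46.7%. Matches were counted on either strand and at any place in the window, so a match need not be a working element. The shares are descriptions, and no binding of a factor was measured.

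**Figure D1:**
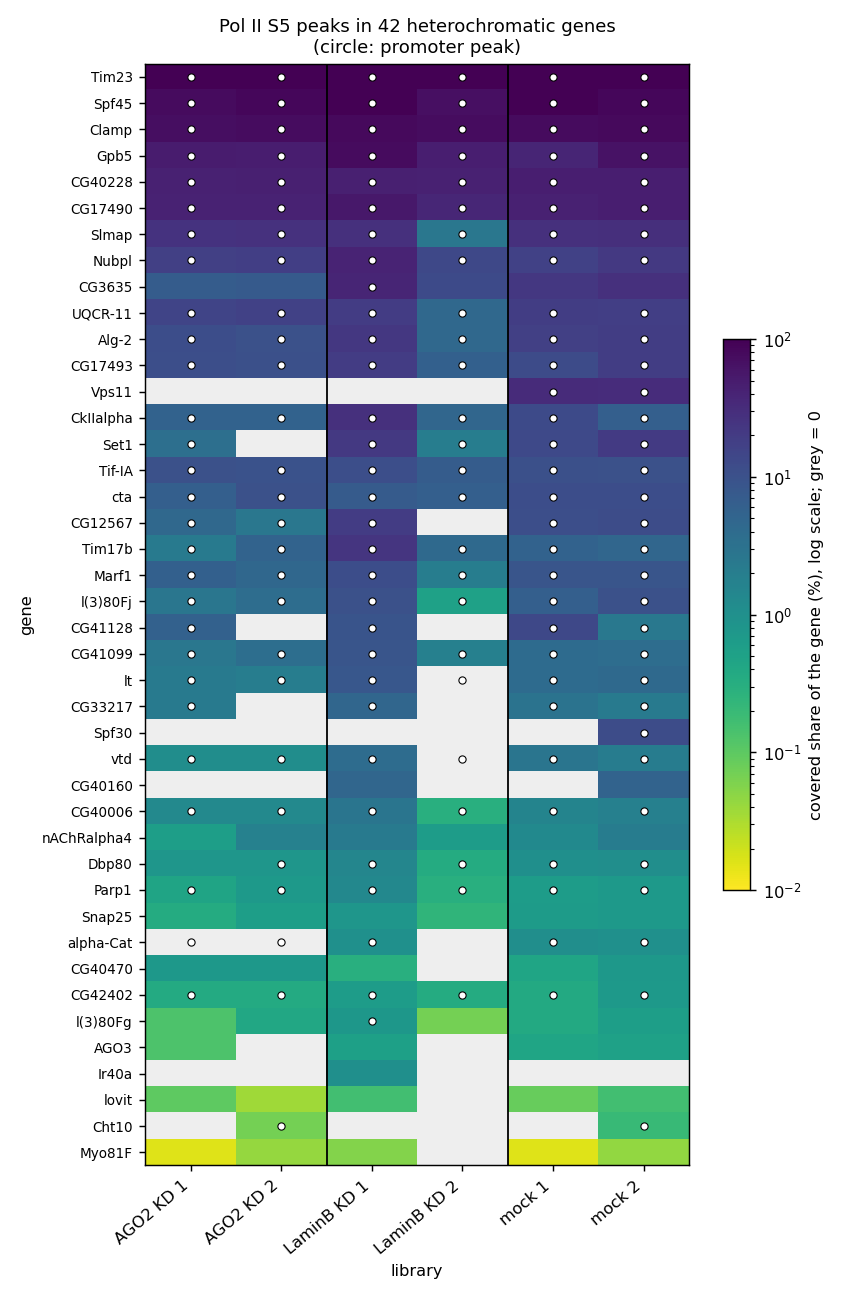
Covered share of the gene (colour, log scale, grey where 0) in each of the 6 libraries (columns) for the 42 heterochromatic genes with a peak in any library (rows, in order of mean covered share). White circles mark promoter peaks, which fill whole rows for 23 genes; the row of Vps11 is grey in the 4 knockdown libraries.

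The genes with the highest covered shares were short and lie mostly on 2L. Tim23 (FBgn0267976, chromosome 2L, 23312465 to 23313578, minus strand) encodes a channel subunit of the mitochondrial inner membrane translocase. It was covered to 100% in both AGO2 KD libraries, 100% and 97.8% after LaminB KD, and 100% in both mock libraries. The adjoining Gpb5 (FBgn0063368), which encodes a glycoprotein hormone subunit, shares a peak with Tim23, so their occupancy cannot be told apart. Its covered shares were 48.8% and 47.1% after AGO2 KD, 75.03% and 46.9% after LaminB KD, and 38.8% and 63.7% in mock, and the groups overlapped.

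Spf45 (FBgn0086683, chromosome 2L, 23066874 to 23068386), a splicing factor gene, was covered to 75.3% and 83.9% after AGO2 KD, 100% and 68.1% after LaminB KD, and 100% and 86.3% in mock. Clamp (FBgn0032979, chromosome 2L, 22165720 to 22169143) encodes a zinc finger protein of dosage compensation. It was covered to 72.1% and 74.6% after AGO2 KD, 77.9% and 73.5% after LaminB KD, and 76.7% and 79.0% in mock. At both genes the AGO2 KD libraries lay below the mock libraries, by 2.38 points at Spf45 and 2.103 points at Clamp between the nearest libraries. The LaminB KD libraries overlapped mock at both. The promoter peaks of Spf45 and Clamp also lie within 1500 bp of the start of another gene, as did all promoter peaks of 9 of the 34 genes that had any.

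The 5 longest genes with a promoter peak in every library were CG40006, Parp1, Marf1, l(3)80Fj and CG42402. Parp1 (FBgn0010247, chromosome 3R, 3461351 to 3587054, minus strand), which encodes poly(ADP-ribose) polymerase, had covered shares of 0.457% and 0.692% after AGO2 KD, 1.37% and 0.305% after LaminB KD, and 0.622% and 0.718% in mock. Its best promoter peak was 574 and 870 bp wide after AGO2 KD, 1034 and 383 bp after LaminB KD, and 782 and 903 bp in mock. The groups overlapped on both measures. CG40006 (FBgn0058006, 133933 bp) had covered shares of 1.29% and 1.31% after AGO2 KD, 2.78% and 0.302% after LaminB KD, and 1.55% and 1.79% in mock. Marf1 (FBgn0039972, 60042 bp) had 5.84% and 4.61% after AGO2 KD, 11.4% and 2.04% after LaminB KD, and 8.86% and 8.95% in mock. At CG40006 and Marf1 both AGO2 KD libraries lay below both mock libraries, and the LaminB KD libraries lay on either side of mock. At l(3)80Fj and CG42402 both AGO2 KD libraries were also below both mock libraries, by 2.47 and 0.0152 points.

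Occupied genes of known function covered chromosome structure, trafficking and signalling. The gene vtd (FBgn0260987, chromosome 3L, 27136525 to 27157999) encodes the cohesin subunit Rad21. Peaks covered 1.09% and 1.10% of it after AGO2 KD, 3.92% and 0% after LaminB KD, and 2.81% and 2.08% in mock, with a promoter peak in all 6 libraries. The gene lt (FBgn0002566, chromosome 2L, 22924795 to 22943135), long studied for its need of heterochromatic surroundings, encodes the Vps41 subunit of the HOPS vesicle tethering complex. It was covered to 2.24% and 2.02% after AGO2 KD, 8.06% and 0% after LaminB KD, and 3.99% and 4.31% in mock, again with a promoter peak in all 6. Where the LaminB KD value is 0%, the peak lay outside the gene, and that of vtd was 635 bp from its start and over other annotated genes. All promoter peaks of vtd lie within 1500 bp of the start of another gene, so they cannot be assigned to vtd alone. At vtd and lt both AGO2 KD libraries lay below both mock libraries, but not at equal peak number, where lt was covered to 0% in both AGO2 KD and both mock libraries.

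**Figure D2:**
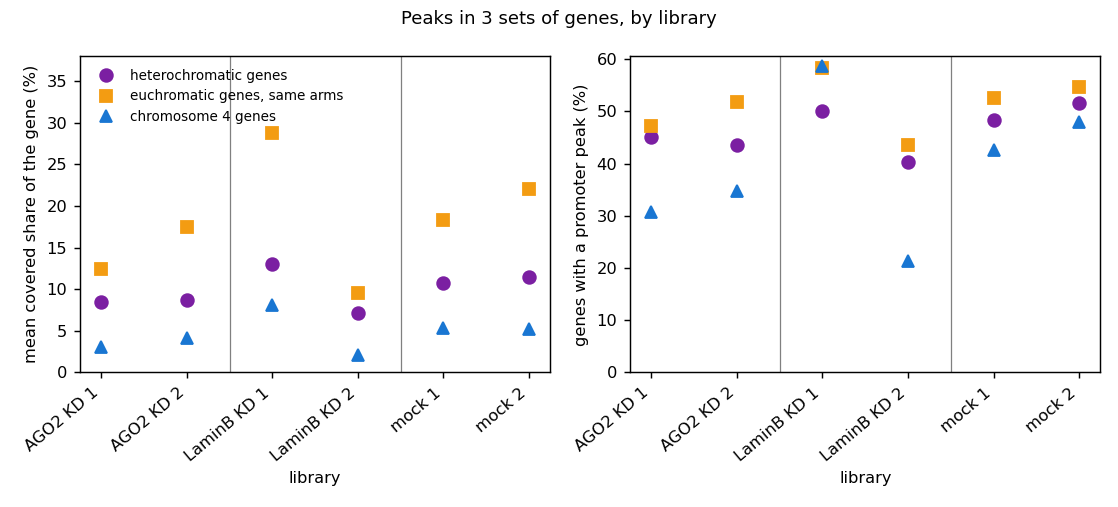
Mean covered share (left axis panel, percent of gene length) and share of genes with a promoter peak (right panel, percent) in each library, for 62 heterochromatic genes (circles), 8543 euchromatic genes of the same arms (squares) and 75 chromosome 4 genes (triangles). Taken over the 3 arms together, the heterochromatic genes lie below the euchromatic genes in all 6 libraries in both panels.

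How the heterochromatic genes differ from other genes was compared within each library. The mean covered share of the 62 genes was 8.51% and 8.65% after AGO2 KD, 12.98% and 7.13% after LaminB KD, and 10.8% and 11.5% in mock. In the 8543 euchromatic genes of the same arms it was 12.4% and 17.5%, 28.7% and 9.50%, and 18.3% and 22.1%, in the same order. The heterochromatic genes were lower in 6 of 6 libraries, by 8.16 points on average, with differences of -15.8 to -2.37 points (exact two-sided sign-flip permutation test over libraries, p = 0.03125, the smallest that 6 libraries allow, and 0.0417 after Benjamini-Hochberg adjustment over 8 such tests). The direction holds for the means and not for the medians. The median covered share was 0.349% and 0.0559% after AGO2 KD, 0.993% and 0% after LaminB KD, and 0.627% and 1.02% in mock, against 0% in euchromatic genes in every library but LaminB KD replicate 1, where it was 2.16%. The direction also differed between arms, since the genes on 2L were higher than euchromatic genes. The heterochromatic genes are longer, with a median of 11118 bp against 2116 bp. The covered length per gene was 467 and 511 bp after AGO2 KD, 1016 and 266 bp after LaminB KD, and 690 and 805 bp in mock, against 349 and 516 bp, 945 and 263 bp, and 527 and 675 bp in euchromatic genes. That difference of 80.03 bp had a p of 0.0938 by the same exact permutation test (adjusted p = 0.107), so a lower covered share went with no detected difference in covered length.

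A promoter peak was found in 45.2% and 43.5% of the heterochromatic genes after AGO2 KD, 50.0% and 40.3% after LaminB KD, and 48.4% and 51.6% in mock. In euchromatic genes it was found in 47.3% and 51.7%, 58.2% and 43.6%, and 52.5% and 54.6%, in the same order. The heterochromatic genes were lower in 6 of 6 libraries, by 4.82 points (exact sign-flip permutation p = 0.03125, adjusted p = 0.0417). This call was lost with a narrower window of 500 bp around the start, where the difference was -1.31 points with an exact permutation p of 0.344. It was -14.6 points among genes of at least 2 kb, -11.2 points with the better-scoring 50% of peaks alone, and -7.04 points at equal peak number (exact permutation p = 0.03125 for each). Over the 6 libraries, 37.1% of the heterochromatic genes had a promoter peak in every library and 45.2% in none, against 42.7% and 41.4% of euchromatic genes.

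Chromosome 4, a small and largely heterochromatic chromosome, was also set beside these genes. Its 75 genes had a mean covered share of 3.10% and 4.11% after AGO2 KD, 8.05% and 2.14% after LaminB KD, and 5.28% and 5.24% in mock. The pericentromeric genes together were higher in 6 of 6 libraries, by 5.27 points (exact sign-flip permutation p = 0.03125, adjusted p = 0.0417). Only the 19 genes on 2L were higher when the arms were taken apart, and the means of the 32 genes on 3L and of the 11 genes on 3R lay below that of chromosome 4 in all 6 libraries. The share of genes with a promoter peak was 7.17 points higher on average, but the differences ran from -8.67 to 19.0 points and did not pass the test (exact permutation p = 0.125, adjusted p = 0.125). In LaminB KD replicate 1 the share was 50.0% in the pericentromeric genes and 58.7% on chromosome 4.

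The blocks as a whole were sparsely covered by peaks. They held 84 and 97 peaks after AGO2 KD, 163 and 62 after LaminB KD, and 111 and 136 in mock, which covered 0.358% to 1.37% of the blocks, against 3.40% to 11.6% of the euchromatin of the same arms (lower in 6 of 6 libraries, exact sign-flip permutation p = 0.03125, adjusted p = 0.0417). Peaks in the blocks were narrower and weaker than those in euchromatin, with differences in the library medians of -190 bp in width and -0.279 in fold over input on average (lower in 6 of 6 libraries for both, exact permutation p = 0.03125, adjusted p = 0.0417). Gene density and repeated sequence were not accounted for in these comparisons of the blocks with euchromatin. The genes described here held 53.6% to 62.2% of the peaks of the blocks. Peaks that touched no annotated gene numbered 27 and 37 after AGO2 KD, 63 and 23 after LaminB KD, and 35 and 51 in mock. Annotated transposons made up 5.27% to 9.28% of the covered length inside the heterochromatic genes.

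Occupied genes were most frequent on 2L among the 3 arms. On 2L, 13 to 15 of 19 genes had a promoter peak in a given library, on 3L 7 to 11 of 32, and on 3R 5 to 6 of 11. The mean covered share on 2L was 19.7% to 31.3%, that on 3L 1.77% to 5.01% and that on 3R 1.02% to 6.01%. The 2L range lay above the other 2, which overlapped. Against euchromatic genes of their own arm, the heterochromatic genes on 2L had a higher mean covered share in 6 of 6 libraries, at 22.6% and 23.2% after AGO2 KD, 31.3% and 19.7% after LaminB KD, and 25.5% and 27.4% in mock. The euchromatic genes of 2L had 10.9% and 15.4%, 26.0% and 8.76%, and 16.4% and 19.7%, in the same order. On 3L and 3R the heterochromatic genes were lower in 6 of 6 libraries than the euchromatic genes of the same arm, which had 9.22% to 28.5% on 3L and 10.3% to 31.1% on 3R. A promoter peak was present in 68.4% to 78.9% of the genes on 2L, 21.9% to 34.4% on 3L and 45.5% to 54.5% on 3R, against 39.7% to 54.4%, 44.2% to 59.2% and 46.1% to 60.5% of euchromatic genes. The lower mean covered share of the 62 genes is thus that of the genes on 3L and 3R. The arms were taken apart after the data were seen, and no test was made between them.

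**Figure D3:**
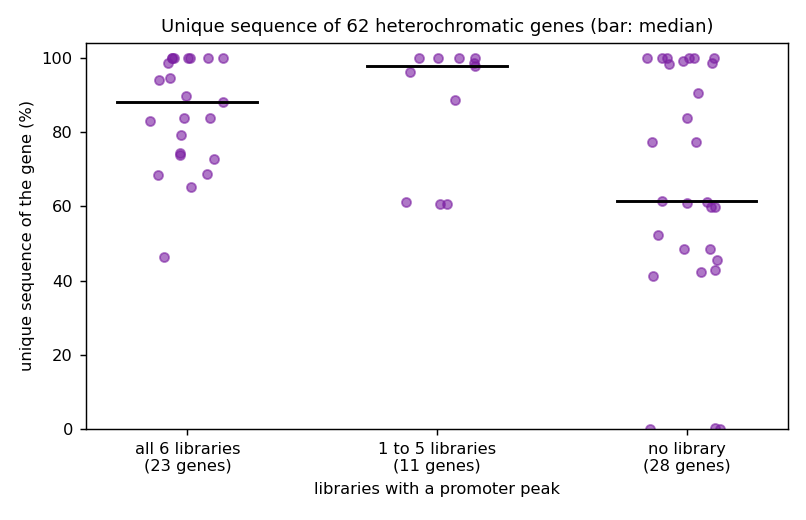
Unique sequence of each of the 62 heterochromatic genes (vertical axis, percent of positions at which a window of 50 bases occurs once in the genome), grouped by the number of libraries with a promoter peak; bars are medians. The median is 88.0% for the 23 genes with a promoter peak in all 6 libraries and 61.3% for the 28 genes with none.

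Repeated sequence limits what can be seen here, since the reads were 50 bases long and reads of low mapping quality were removed by the authors. Unique sequence made up a median of 83.8% of the heterochromatic genes, with a range of 0% to 100%, against a median of 100% in euchromatic genes. It was 88.0% in the 23 genes with a promoter peak in all 6 libraries, 97.7% in the 11 with one in 1 to 5, and 61.3% in the 28 with none. In the windows around their starts the medians were 99.1%, 98.1% and 90.4%. The part of unique sequence in the missing peaks was not tested. At a few genes it was near 0, as at eIF4B (FBgn0020660, chromosome 3L, 27842669 to 27858271), a translation initiation factor gene with 0.455% unique sequence and no peak in any library. CG17715 and CG40439 had no unique sequence in the gene (0%). The gene Gfat1 (FBgn0287209, chromosome 3R, 4126442 to 4137882) encodes the rate-limiting enzyme of the hexosamine pathway and had no peak. Its body was 98.4% unique, but the promoter stretch printed above was 0% unique. The promoter stretch of eIF4B was 100% unique, and the windows within 1500 bp of the starts were 52.3% unique at eIF4B and 71.9% at Gfat1. A missing peak in the repeated stretches does not show missing polymerase. The genes eIF4B, CG17715 and CG40439 were named after their values were seen.

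Some other unoccupied genes were almost wholly unique at their promoters. The genes nvd (FBgn0287185) and spok (FBgn0086917) act in ecdysteroid synthesis in the prothoracic gland. The gene nrm (FBgn0262509) encodes an immunoglobulin-type adhesion protein of muscle and nerve. All 3 had no peak in any library, with 99.1%, 99.6% and 100% unique sequence around their starts. Over the whole gene it was 52.4%, 48.5% and 99.1%. Around the starts of all 28 genes with no promoter peak it ranged from 0% to 100%, with a median of 90.4%. In all, 20 of the 62 genes had no peak in the gene or its promoter window. At any length, 67.7% of the heterochromatic genes had a peak in the gene in any library, against 53.7% of euchromatic genes. The heterochromatic genes are longer, and these shares were not matched for length. Among genes of 10 kb or longer, 55.9% of the heterochromatic genes had no promoter peak in any library, against 31.8% of euchromatic genes.

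Several long genes carried peaks deep inside the gene rather than at a start. Of the 28 genes with no promoter peak in any library, 8 had a peak elsewhere in the gene. That is 12.9% of the heterochromatic genes, against 1.33% of euchromatic genes and 0% of the 75 genes on chromosome 4. Among genes of 10 kb or longer it is 8 of 34 (23.5%) against 4.01% of 1146 euchromatic genes, so the shares also differed among long genes. No test was made of this difference. In total 49 covered stretches lay more than 1500 bp from every start of their gene, in 22 genes. Of these, 14 stretches in 11 genes were seen in 5 or 6 libraries, and 12 of the 14 held no exon base. Their median unique sequence was 98.7% and their median overlap with annotated transposons was 0%, and 1 of the 14 lay within 1500 bp of the start of another annotated gene. Their distance from the nearest start ranged from 2.58 to 1521 kb. Another 19 stretches were seen in 1 library alone, 15 of them in LaminB KD replicate 1, the longest list.

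**Figure D4:**
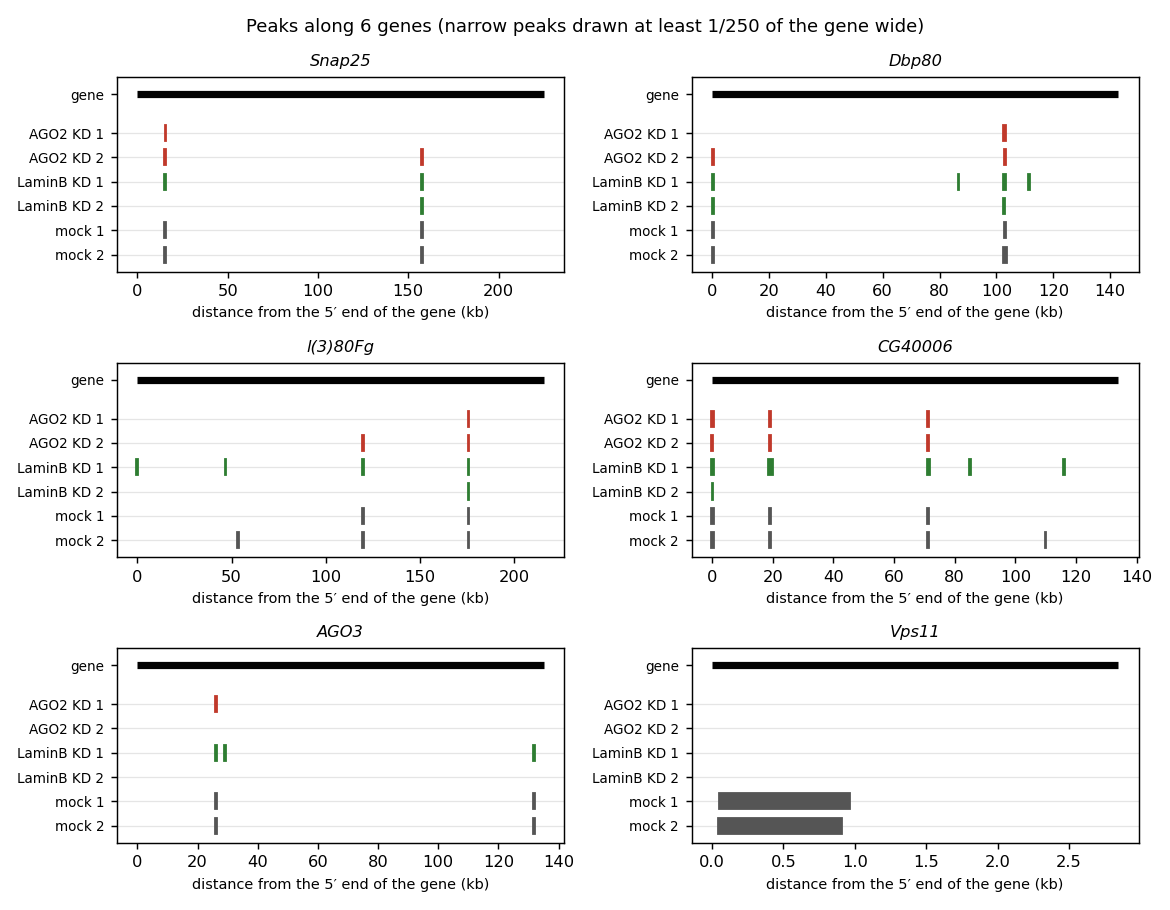
Peaks (coloured blocks, 1 row for each library, AGO2 KD above LaminB KD above mock) along 6 heterochromatic genes (black bar), by distance from the 5′ end of the gene in kb. Snap25, Dbp80, l(3)80Fg and CG40006 share internal peaks between libraries of all 3 groups; Vps11 has a peak near its 5′ end in the 2 mock libraries alone.

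Snap25 (FBgn0011288, chromosome 3L, 24074180 to 24299205, plus strand) encodes a SNARE protein of synaptic vesicle fusion and spans 225026 bp. It had no promoter peak but internal peaks 14.9 kb and 157 kb from the nearest start, each in 5 of 6 libraries. Its covered shares were 0.345% and 0.579% after AGO2 KD, 0.784% and 0.240% after LaminB KD, and 0.633% and 0.691% in mock. Dbp80 (FBgn0024804, chromosome 3L, 27279316 to 27422159), a DEAD box RNA helicase gene, had a promoter peak in 5 libraries and an internal peak 102 kb from the nearest start in all 6, with a fold over input of 1.88 to 3.35. Its covered shares were 0.804% and 0.802% after AGO2 KD, 1.44% and 0.345% after LaminB KD, and 1.04% and 1.05% in mock. At Snap25 and Dbp80 both AGO2 KD libraries lay below both mock libraries, by 0.0538 and 0.232 points, and the LaminB KD libraries did not separate from mock. At equal peak number the call was kept at Snap25 and lost at Dbp80. Snap25 was then also lower after LaminB KD, with 0.495% and 0.240% against 0.633% and 0.691% in mock.

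AGO3 (FBgn0250816, chromosome 3L, 23554593 to 23689640), a PIWI-clade Argonaute of the germline piRNA pathway, is 70.5% annotated transposon sequence. It had no promoter peak and an internal peak 24.6 kb from the nearest start in 4 libraries, one of them an AGO2 KD library. Its covered shares were 0.132% and 0% after AGO2 KD, 0.524% and 0% after LaminB KD, and 0.439% and 0.512% in mock. Myo81F (FBgn0267431, chromosome 3R, 567076 to 2532932), a myosin heavy chain gene of 1965857 bp and the longest of the set, had an internal peak in 5 libraries that was 34.4% unique. In l(3)80Fg, a gene known by its lethal mutations and named here after its values were seen, an internal peak 175 kb from the nearest start had a fold of 2.68 to 5.19 in all 6 libraries, and a promoter peak was present in LaminB KD replicate 1 alone.

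Whether depletion of AGO2 changed occupancy of these genes was compared with mock. The mean covered share was 8.58 ± 0.105% after AGO2 KD and 11.1 ± 0.516% in mock (SD, n = 2), a difference of -2.55 points. Both AGO2 KD libraries lay below both mock libraries, but this design cannot reach 0.05 (exact two-sided permutation p = 0.333, the smallest possible, and adjusted p = 0.833 over 10 such tests). The ratio of AGO2 KD to mock was 0.771, beside 0.741 in euchromatic genes. The difference in points was 2.67 smaller than in euchromatic genes, and did not pass the test (exact permutation p = 0.667). It was 0.199 without AGO2 KD replicate 1, 5.14 without AGO2 KD replicate 2, 4.19 without mock replicate 1 and 1.154 without mock replicate 2. A promoter peak was found in 28 and 27 genes after AGO2 KD and in 30 and 32 in mock, a difference of -5.65 points (exact permutation p = 0.333). The total covered length in the heterochromatic genes had a ratio of AGO2 KD to mock of 0.654 (exact permutation p = 0.333). Per gene the mean covered length was 489 bp after AGO2 KD and 747 bp in mock, against 432 and 601 bp in euchromatic genes.

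Gene by gene, 27 of the 62 genes (43.5%) had a lower covered share in both AGO2 KD libraries than in both mock libraries, and 0 had a higher one. Over all protein-coding genes the percentages were 23.8% lower and 0.251% higher. Of euchromatic genes 23.1% were lower, and of chromosome 4 genes 21.3%. Among genes of 2 kb or longer, 25 of 51 heterochromatic genes were lower, against 30.7% of euchromatic genes and 20.8% of chromosome 4 genes. Among genes of 10 kb or longer, 13 of 34 (38.2%) were lower, against 31.5% and 15.4%. The difference from euchromatic genes was thus smaller among genes of 10 kb or longer than at any length. These differences were not tested. A peak in the gene in any library was present in 67.7% of the heterochromatic genes and 53.7% of euchromatic genes. A gene with no peak cannot be lower, and the part of this in the difference was not tested. With the same number of peaks in each library, 22 heterochromatic genes (35.5%) were lower, against 22.1% of all protein-coding genes. The gaps were small, with a median of 1.10 points between the nearest libraries, and under 1 point for 12 of the 27 genes. In 2 of the 62 genes, Vps11 and CG3635, the gap was at least 10 points, beside 5.75% of all protein-coding genes. A gene covered to under 10% in mock cannot reach that gap, and 39 of the 62 genes had a mock mean under 5%. The count at that gap therefore cannot say whether the heterochromatic genes were more often lower.

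**Figure D5:**
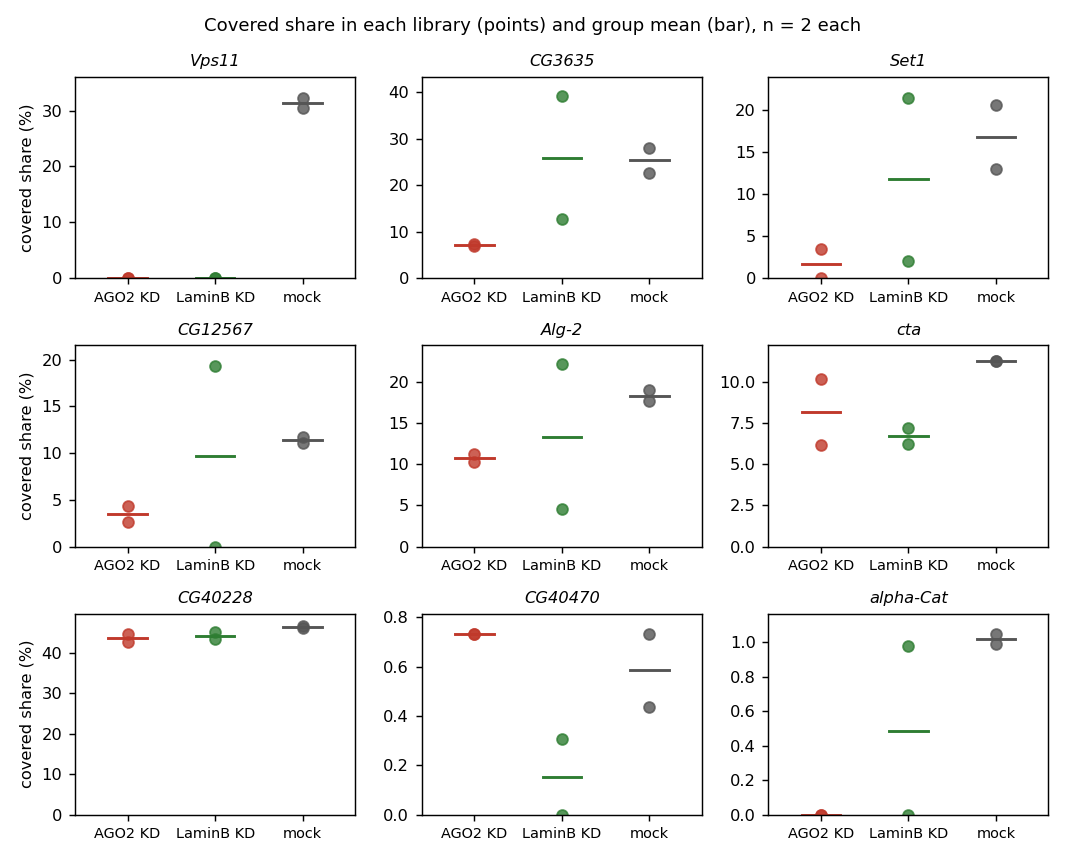
Covered share (percent of gene length, linear axis from 0) of 9 heterochromatic genes in each library (points) and the group mean (bar) for AGO2 KD, LaminB KD and mock, 2 libraries each. In the AGO2 KD libraries Vps11, CG3635, Set1, CG12567 and Alg-2 lie below both mock libraries by 6.40 to 30.5 points.

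Vps11 stood apart in both knockdowns. Vps11 (FBgn0052350, chromosome 3L, 23147656 to 23150499, minus strand) encodes another subunit of the HOPS and CORVET tethering complexes. Peaks covered 0% of it in both AGO2 KD and both LaminB KD libraries, against 32.3% and 30.5% in mock. The peak was 919 and 868 bp wide in the mock libraries, began 50 and 41 bp from the start, and had a fold over input of 2.73 and 2.68. It also lies over the antisense gene asRNA:CR45164, and the reads cannot be assigned to one of them. Vps11 was the only heterochromatic gene to lose its promoter peak after AGO2 KD or after LaminB KD, beside 1.2% of all protein-coding genes after AGO2 KD and 0.0788% after LaminB KD. No heterochromatic gene (0 of 62) gained one, beside 0.0143% of all genes after AGO2 KD and 0.00716% after LaminB KD. The loss rests on weak peaks, with a −log10 q-value of 1.64 and 2.23 in mock. With the 5108 best peaks of each library, the number in the shortest list, Vps11 was covered to 0% in all 6 libraries and the call was lost.

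CG3635 (FBgn0032981, chromosome 2L, 22175415 to 22183991) was covered to 6.97% and 7.49% after AGO2 KD, 39.2% and 12.7% after LaminB KD, and 22.6% and 28.1% in mock. In all 6 libraries a peak lay 4.16 kb or more from the nearest start. It was narrower after AGO2 KD, at 598 and 642 bp, than the largest mock peaks, at 1684 and 2411 bp. Set1 (FBgn0040022, chromosome 3L, 25107594 to 25115180) encodes the main methyltransferase of lysine 4 on histone H3. It was covered to 3.43% and 0% after AGO2 KD, 21.5% and 2.02% after LaminB KD, and 13.02% and 20.5% in mock. At both genes the AGO2 KD libraries lay below mock and the LaminB KD libraries fell on either side of mock. At equal peak number the call was kept at CG3635 but lost at Set1, which then had 3.43% and 0% after AGO2 KD, 21.5% and 2.02% after LaminB KD, and 3.23% and 0% in mock.

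CG12567 (FBgn0039958) had covered shares of 4.39% and 2.63% after AGO2 KD, 19.3% and 0% after LaminB KD, and 11.1% and 11.7% in mock. Alg-2 (FBgn0086378), which encodes a calcium-binding protein, had 11.2% and 10.2% after AGO2 KD, 22.1% and 4.53% after LaminB KD, and 17.6% and 19.0% in mock. In both genes the promoter peak was present in both AGO2 KD libraries and narrower than in mock. All promoter peaks of CG12567 lie within 1500 bp of the start of another gene, so they cannot be assigned to CG12567 alone. At Alg-2 the promoter peak was 511 and 464 bp wide after AGO2 KD and 802 and 863 bp in mock. At equal peak number both genes were still lower after AGO2 KD, and CG12567 was also lower after LaminB KD, with 0% in both libraries against 11.1% and 9.84% in mock.

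Depletion of LaminB gave no detectable shift against the spread of its replicates. The mean covered share was 10.1 ± 4.14% after LaminB KD and 11.1 ± 0.516% in mock (SD, n = 2), a difference of -1.08 points (exact two-sided permutation p = 1). Leaving out LaminB KD replicate 2 turned it to 1.85 points. A promoter peak was found in 31 and 25 genes after LaminB KD and in 30 and 32 in mock, a difference of -4.84 points (exact permutation p = 0.667). Leaving out LaminB KD replicate 1 gave -9.68 points, and leaving out LaminB KD replicate 2 gave 0. The shift in covered share differed from that of euchromatic genes by -0.0144 points (exact permutation p = 1). In 5 genes (8.06%) both LaminB KD libraries lay below both mock libraries, beside 1.3% of all protein-coding genes, and in 0 above, beside 0.158%. Without LaminB KD replicate 1 the count of lower genes was 37, beside 45.2% of all protein-coding genes, and without LaminB KD replicate 2 the count of higher genes was 27, beside 40.9%. Without mock replicate 1 the count of lower genes was 12, beside 6.33%. At equal peak number 8 genes were lower after LaminB KD, beside 2.06% of all: CG12567, Snap25, AGO3, CG40006, CG40228, CG40470, alpha-Cat and cta.

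The 5 genes were Vps11, cta, CG40228, CG40470 and alpha-Cat, and 4 of them, all but CG40470, were also lower after AGO2 KD. The 2 comparisons share the mock libraries. The gene cta (FBgn0000384, chromosome 2L, 22981816 to 22992951) encodes a G protein alpha subunit that drives cell shape change in gastrulation. Peaks covered 6.18% and 10.2% of it after AGO2 KD, 7.20% and 6.23% after LaminB KD, and 11.3% and 11.3% in mock. Its promoter peak remained in every library, with a fold over input of 4.99 and 6.05 after AGO2 KD, 7.28 and 4.45 after LaminB KD, and 6.18 and 6.96 in mock. CG40228 (FBgn0063670) had 42.6% and 44.8% after AGO2 KD, 45.0% and 43.4% after LaminB KD, and 46.3% and 46.7% in mock.

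CG40470 (FBgn0058470) had 0.731% in both AGO2 KD libraries, 0.305% and 0% after LaminB KD, and 0.438% and 0.731% in mock, from an internal peak 116 kb from the nearest start. The gene alpha-Cat (FBgn0010215), which encodes alpha-catenin of adherens junctions, had 0% in both AGO2 KD libraries, 0.977% and 0% after LaminB KD, and 1.05% and 0.992% in mock. At alpha-Cat the AGO2 KD libraries still held a peak within 1500 bp of a start, over the neighbouring ND-MLRQ. At CG40470 and alpha-Cat the gap between LaminB KD and mock was 0.133 and 0.0154 points.

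Genes for proteins that build or bind heterochromatin were set beside these genes, wherever they lie. Of 22 such genes, 18 had a promoter peak in all 6 libraries, 3 in 1 to 5 and 1, HP6, in none. After AGO2 KD 10 of the 22 were lower than in mock, beside 23.8% of all protein-coding genes, and 0 higher, beside 0.251%. After LaminB KD 0 were lower, beside 1.3%, and 0 higher, beside 0.158%. A gene with no peak cannot be lower, and all of the 22 but HP6 had a promoter peak in some library. Their median covered share in mock was 39.1%. The part of this in the count of lower genes was not tested. The gene egg, which encodes a methyltransferase of lysine 9 on histone H3, was covered to 0% and 4.78% after AGO2 KD, 65.0% and 4.30% after LaminB KD, and 8.97% and 17.4% in mock.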

How the data were processed

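Of 12 samples, the 6 immunoprecipitated libraries with deposited peak lists were analysed, and groups were taken from the labels. The authors trimmed reads (cutadapt 1.10 per the labels), aligned them to dm6 with Bowtie2, removed reads with a mapping quality under 20 and duplicates (Picard 2.11.0), and called broad peaks for each library with MACS2 2.1.1.20160309. The authors deposited for each peak a score, the fold over input (a ratio), and the p-value and q-value as −log10, averaged over the peak. A deeper library yields more and wider peaks from the same chromatin, and depth is unknown here.

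Coordinates are those of dm6, counted from 1, with genes from Ensembl release 115. Covered shares, promoter peaks and unique sequence (windows of 50 bases that occur once, on both strands) were computed with Python 3.11.15, numpy 2.4.6 and pandas 2.3.3, and the scripts were tested on simulated data. Lower or higher means that both knockdown libraries lay below or above both mock libraries. Knockdowns were compared by exact two-sided permutation (2 libraries against 2, with 0.333 as the smallest p) and gene sets by exact two-sided sign flips over 6 libraries. The tests of peak width, peak fold, covered length per gene and covered share of the blocks were added after the data were seen. The DiffBind test of the authors needs read counts and was not run. Motifs were read at the canonical Ensembl starts, since no promoter table was used.

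Members and gene lists were chosen with earlier results of these data known, the loss of the Vps11 peak among them. Named are the genes of fixed role lists, the 5 with the highest covered share, the 5 longest with a promoter peak in all 6 libraries, up to 5 that separate most in each direction and knockdown, and those that gained or lost a promoter peak. Alternatives were equal peak number, the upper 50% of peaks by score, genes of at least 2 kb, unique bases as the denominator, a promoter window of 500 bp, an overlap of 100 bp, a gap of 10 points, leaving out each library and a replicate block.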

Additional observations from a re-analysis of the deposited data

How the results depend on the processing

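Over 14 results and 150 alternative values, 110 were labelled as unchanged. For a mean or a share this means the same direction and side of the threshold, and for a count of genes a similar count. The knockdown tests cannot reach 0.05 with at most 2 libraries in each group, so their side of the threshold could not change. The direction of a mean difference could also not change under a replicate block or crossed replicate block, and those values count among the unchanged. With the same number of peaks in each library 1 gene was higher after AGO2 KD (0.558% of all protein-coding genes) and 8 were lower after LaminB KD (2.06% of all). In the upper 50% of peaks by score 12 genes were lower after AGO2 KD (16.2% of all), 2 lower after LaminB KD (1.2%) and 1 higher after LaminB KD (0.644%). With a gap of at least 10 points 2 genes were lower after AGO2 KD (5.75% of all) and 1 after LaminB KD (0.1%). Within 500 bp of a start, the promoter difference from euchromatic genes was -1.31 points, against -14.6 points among genes of at least 2 kb. The promoter difference from chromosome 4 passed the test at 10.9 points with equal peak number and 5.08 points in the upper 50% of peaks. The LaminB KD shift relative to euchromatic genes turned to 0.664 points at equal peak number and to 0.0723 as a log2 ratio, an alternative chosen after seeing the data.

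Leaving out 1 library gave a LaminB KD shift relative to euchromatic genes of -6.71 to 6.68 points and a LaminB KD difference in covered share of -4.01 to 1.85 points, so both depend on which LaminB KD replicate is used. The AGO2 KD shift relative to euchromatic genes was 0.199 to 5.14 points, and the LaminB KD difference in promoter peaks -9.68 to 0 points. Lower genes numbered 5 to 37 after LaminB KD and higher genes 0 to 27 after LaminB KD and 0 to 3 after AGO2 KD. The covered share differed from euchromatic genes by -9.32 to -6.64 points and from chromosome 4 by 5.07 to 5.41 points, and the promoter share from euchromatic genes by -5.36 to -4.13 points. These 3 no longer passed because 5 libraries allow no exact permutation p under 0.0625.

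Same-numbered libraries did not deviate together from their group means (correlation with mock -0.258 for AGO2 KD and -0.162 for LaminB KD over 62 genes). With a replicate block 32 genes were lower after AGO2 KD (33.9% of all) and 6 after LaminB KD (1.7%). A block leaves the mean differences as they were, so their direction could not change. With the crossed replicate block, added after the data were seen, 29 were lower after AGO2 KD (25.5% of all), 9 lower after LaminB KD (5.56%) and 1 higher after LaminB KD (1.49%). The cause of these changes was not tested. Depth is unknown, so an absent peak sets no upper limit on occupancy.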
